A study of Mus musculus with 36 samples.

Results

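Ccl2, Ccl7, Ccl8 and Ccl12, the genes for the mouse monocyte chemoattractant proteins, were followed through flow-sorted cardiac macrophages of 36 polyA RNA libraries. The 4 genes were taken by symbol from a table of read counts per gene that lists 12795 genes, and all 4 were in the table and passed the filter on low counts. Macrophages that carry the receptor CCR2 (CCR2pos) and those that lack it (CCR2neg) were sorted separately from hearts of mice given tamoxifen for 7 days, then 90 minutes of ischemia, and taken 7 days later. Within each fraction there were 4 groups, named as in the library titles. Those called with Cre below were mac-TFEB (TFEB-TG genotype, a TFEB expression cassette behind a floxed stop, n = 4 libraries) and CX3CR1-Cre (TFEB-wt genotype, no cassette, n = 5). The others were TFEB-TG Cre-neg (cassette, n = 4) and TFEB-wt Cre-neg (no cassette, n = 5). All animals are described as carrying a tamoxifen-inducible Cre driven by Cx3cr1, a gene active in macrophages and monocytes, and a floxed-stop Td-Tomato reporter. How the Cre-neg cells were defined, given that, no source used here states. Each library title carries a genotype and number (TFEBTG1 to TFEBTG4, TFEBwt1 to TFEBwt5), each such label occurs in 4 libraries, 1 per fraction and Cre status, and nothing says that a label is 1 animal.

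Chemokines of the CC family are small secreted proteins that draw leukocytes along a gradient, and they take their name from a pair of adjacent cysteines. In the mouse, the products of Ccl2, Ccl7 and Ccl12 act through CCR2, the receptor by which inflammatory monocytes leave bone marrow and enter injured tissue, while that of Ccl8 acts mainly through CCR8. In the injured heart, macrophages with CCR2 descend largely from recruited monocytes, and those without it are largely resident. TFEB is a factor that turns on genes of lysosomes and autophagy. In bulk libraries a lower level can mean fewer cells of a type or less RNA per cell, and these cannot be told apart.

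The 4 genes lie in a row on the plus strand of chromosome 11 (GRCm38). Ccl2 (ENSMUSG00000035385) spans chr11:82035571-82037453, Ccl7 (ENSMUSG00000035373) chr11:82045712-82047525, Ccl12 (ENSMUSG00000035352) chr11:82101845-82103400 and Ccl8 (ENSMUSG00000009185) chr11:82115185-82116799. Each has 3 exons. Ccl11, the gene of the eosinophil attractant eotaxin, lies between Ccl7 and Ccl12. The stretches of spliced coding sequence around the adjacent cysteine codons are shown because they are the mark of the family and let a reader see how alike the 4 genes are; the codons are in capitals (codons 34 and 35 in Ccl2, 33 and 34 in Ccl7 and Ccl12, 32 and 33 in Ccl8), and each stretch crosses an intron. The stretches lie at chr11:82035737-82036535 in Ccl2, chr11:82045856-82046567 in Ccl7, chr11:82115306-82116085 in Ccl8 and chr11:82101972-82102663 in Ccl12.
Ccl2: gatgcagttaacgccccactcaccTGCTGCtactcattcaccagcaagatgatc
Ccl7: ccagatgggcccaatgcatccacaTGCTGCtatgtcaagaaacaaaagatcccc
Ccl8: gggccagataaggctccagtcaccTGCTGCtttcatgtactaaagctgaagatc
Ccl12: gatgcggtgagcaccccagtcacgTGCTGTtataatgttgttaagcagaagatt
The codon pair is spelled alike in Ccl2, Ccl7 and Ccl8, while its last base differs in Ccl12. Over the coding sequence, Ccl8 and Ccl12 were the most alike pair (70.49% identical bases) and Ccl2 and Ccl8 the least (63.1%). Ccl2 has the longest coding sequence (148 codons, against 97 in Ccl7, 97 in Ccl8 and 104 in Ccl12). Despite this likeness, the longest stretch of identical bases between any pair of the mRNAs was 23, shorter than the 50-base reads, and none of the 50-base words of the 4 mRNAs occurred in a transcript of another gene.

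The proximal promoters (250 bases before to 50 after the start, RefSeq, GRCm38.p6) of Ccl8 at chr11:82114935-82115234 and Ccl12 at chr11:82101595-82101894, both plus strand, are shown because these neighbours are the most alike pair in coding sequence and differ in their results below. Capitals mark TATAAAA, the core promoter element upstream of many starts, and GGAAATCA, a block picked out after reading both sequences.
Ccl8: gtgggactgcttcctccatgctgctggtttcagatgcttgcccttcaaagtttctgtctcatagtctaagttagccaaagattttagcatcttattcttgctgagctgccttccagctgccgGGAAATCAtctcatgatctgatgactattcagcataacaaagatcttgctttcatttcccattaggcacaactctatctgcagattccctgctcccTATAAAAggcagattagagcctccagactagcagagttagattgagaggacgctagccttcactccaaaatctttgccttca
Ccl12: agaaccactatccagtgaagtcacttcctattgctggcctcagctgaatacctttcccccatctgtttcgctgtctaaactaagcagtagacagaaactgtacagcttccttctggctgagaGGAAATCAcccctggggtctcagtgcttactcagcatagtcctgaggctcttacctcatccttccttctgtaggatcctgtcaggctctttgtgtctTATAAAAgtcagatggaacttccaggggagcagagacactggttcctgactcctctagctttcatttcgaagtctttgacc
TATAAAA began 32 bases before the start in Ccl8 and 31 before it in Ccl12, and 5.44% of 32544 promoters of this length hold it on either strand. GGAAATCA began 128 bases before the start in both, and 1.22% of promoters hold it. None of the letters searched for 4 factor families matched in either window, on either strand: CACGTG, the E-box that TFEB can bind (in 7.17% of promoters), GGG and CC with 5 free bases between them for NF-kB (50.95%), TGANTCA for AP-1 (7.79%) and TTCNNNGAA for STAT factors (8.33%). The windows were 61.35% identical over 282 aligned bases.

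Libraries held 13797484 to 32645783 counts, and the lowest count of the 4 genes in any library was 1401, for Ccl8, so spread between libraries and not counting error set the precision. Macrophage markers (10 of 10 measured, Adgre1, Csf1r and the C1q genes among them) summed to 20013 to 30098 CPM (counts scaled by the library's total) in every library, and Ccr2 itself was 3.46 to 3.95 log2 units higher in CCR2pos than in CCR2neg cells in each of the 4 fraction comparisons. Tfeb, the gene in the cassette, stood at 335, 250, 98.1 and 67.4 CPM in CCR2neg mac-TFEB libraries, against 6.66 to 8.86 CPM in CCR2neg CX3CR1-Cre libraries. In the CCR2pos fraction it stood at 225, 280, 60.4 and 68.2 CPM in mac-TFEB libraries, against 4.42 to 11.5 CPM in CX3CR1-Cre libraries. In the Cre-neg groups, Tfeb was still higher with the cassette than without it in CCR2pos cells (log2 fold change 2.68 ± 0.43, adjusted p = 0.00249) and gave 1.65 ± 0.43 in CCR2neg cells (0.0697). The labels do not tie the libraries within a group to different mice, so p-values measure the spread between these samples. A pair of CCR2neg libraries of label TFEBTG1 stood apart: the TFEB-TG Cre-neg library had a median correlation of 0.908 with its group and 513.9 CPM of cardiomyocyte markers, against a median of 44.9 CPM over all libraries, and the mac-TFEB library had 0.931. In both of these groups the TFEBTG1 library was the lowest for all 4 chemokine genes. Values of these 4 genes without the pair are therefore given where they make or end a call or move a value named below by much. Other genes have values from all libraries only. The CCR2pos libraries of TFEBTG1, which those fits kept, were low too. In TFEB-TG Cre-neg cells the CCR2pos TFEBTG1 library was the lowest for all 4 genes, and in mac-TFEB cells for Ccl2, Ccl7 and Ccl8.

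**Figure D1:**
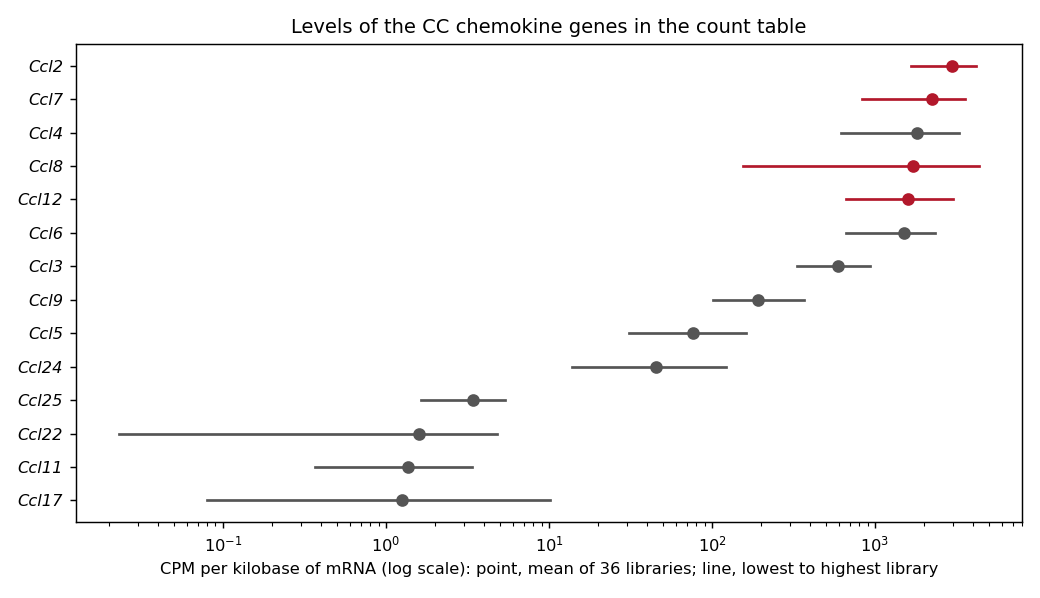
Levels of the CC chemokine genes of the count table, as CPM per kilobase of mRNA on a log axis; points are means of 36 libraries, lines run from the lowest to the highest library, and the 4 chemoattractant genes are in red. Ccl2 and Ccl7 lie above all others, Ccl8 and Ccl12 next to Ccl4 and Ccl6, and Ccl8 has the longest line of the 4.

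Over the mean of all libraries, Ccl2 and Ccl7 were the most abundant CC chemokine transcripts of these macrophages, and all 4 genes ranked near the top of 12783 genes with a known mRNA length. Scaled by mRNA length, the mean over 36 libraries was 2975 CPM per kilobase for Ccl2 (rank 15), 2240 for Ccl7 (rank 22), 1714 for Ccl8 (rank 33) and 1594 for Ccl12 (rank 37). Ccl4 was at 1816 CPM per kilobase, Ccl6 at 1495 and Ccl3 at 595. The neighbour Ccl11 was at 1.36 CPM per kilobase and never passed 3.63 CPM in a library. Within single libraries, the order per kilobase was Ccl2, Ccl7, Ccl12, Ccl8 in 16 of 36 and Ccl2, Ccl7, Ccl8, Ccl12 in 9, while Ccl8 headed the order in 4. In the means of CCR2pos TFEB-wt Cre-neg cells Ccl8 was the highest of the 4 genes, at 3434 ± 698 CPM per kilobase, beside 2879 ± 533 for Ccl2 and 2408 ± 503 for Ccl7 (SD, n = 5).

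The genes differed in how far they ranged. Ccl2 kept within 1346 to 3378 CPM over all libraries (2.51-fold), Ccl7 within 666 to 2861 CPM (4.29-fold) and Ccl12 within 356 to 1624 CPM (4.57-fold), while Ccl8 ranged from 79.5 to 2231 CPM (28.1-fold). For Ccl2 the group means ran from 2989 ± 283 CPM in CCR2pos CX3CR1-Cre to 1941 ± 332 CPM in CCR2neg TFEB-wt Cre-neg (SD, n = 5 each), and no neighbouring means in this order differed beyond their spread. The same was true of Ccl7, whose means ran from 2324 ± 372 to 1275 ± 347 CPM in the same groups (SD, n = 5 each). For Ccl8 the order split by fraction: the CCR2pos means were 946 ± 452 CPM in mac-TFEB, 1290 ± 212 CPM in CX3CR1-Cre, 1189 ± 304 CPM in TFEB-TG Cre-neg and 1755 ± 357 CPM in TFEB-wt Cre-neg cells. The CCR2neg means were 243 ± 188 CPM in mac-TFEB, 335 ± 76.5 CPM in CX3CR1-Cre, 579 ± 328 CPM in TFEB-TG Cre-neg and 559 ± 182 CPM in TFEB-wt Cre-neg cells, all below the CCR2pos means. Of the neighbours in that order, only CX3CR1-Cre and TFEB-wt Cre-neg cells differed beyond their spread, in both fractions. For Ccl12, CCR2pos CX3CR1-Cre cells (1322 ± 208 CPM) stood beyond the spread above the next mean, 1011 ± 174 CPM in CCR2neg CX3CR1-Cre cells, and so did CCR2pos TFEB-TG Cre-neg cells (767 ± 94.8 CPM) above CCR2neg TFEB-wt Cre-neg cells (619 ± 121 CPM). The lowest Ccl12 mean, 537 ± 177 CPM, was that of CCR2neg mac-TFEB cells.

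**Figure D2:**
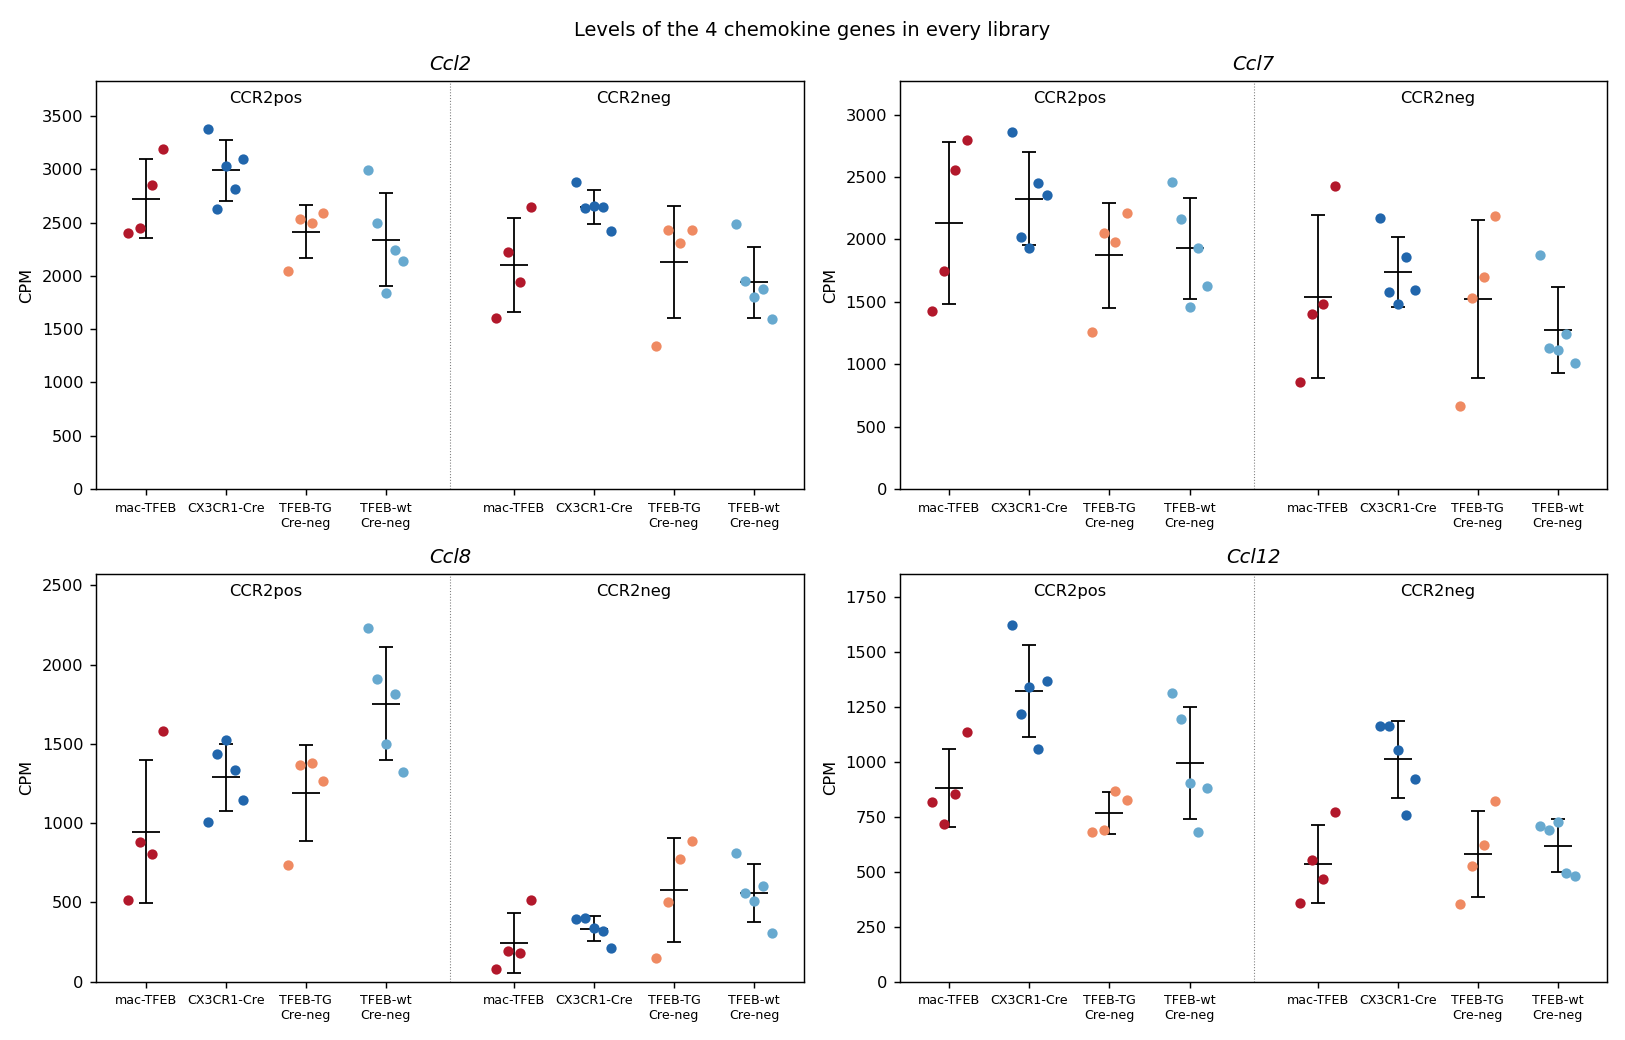
CPM of each gene in every library, by sorted fraction and group (points, libraries; bars, mean ± SD; n = 4 or 5). Every CCR2neg mean of Ccl8 lies below every CCR2pos mean, and the highest mean of Ccl12 is that of CCR2pos CX3CR1-Cre cells.

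The fraction comparisons ask which genes differ between CCR2pos and CCR2neg macrophages of the same genotype and Cre status. Ccl8, the CCR8 ligand, was the chemoattractant gene that differed most: it was higher in CCR2pos cells by 1.04 to 1.96 log2 units, and the call was made in 3 of the 4 comparisons. The CCR2 ligands Ccl2, Ccl7 and Ccl12 differed less, by 0.18 to 0.71 log2 units, and edgeR called none of them in the fit to all libraries without the label as a block. Ccl12 in TFEB-wt Cre-neg cells came nearest (0.69 ± 0.20, adjusted p = 0.0630). It was called there by DESeq2 (0.0156) and limma-voom (0.0398), and by edgeR without CCR2pos TFEB-wt Cre-neg replicate 4 (0.0317). EdgeR also called it without the cardiomyocyte-rich library described above (0.0339) or without both CCR2neg TFEBTG1 libraries (0.0278). Those are TFEB-TG libraries outside the groups compared, and the fold change stayed at 0.69 in both fits. DESeq2 also called Ccl12 in mac-TFEB cells (0.0499), where edgeR gave 0.71 ± 0.22 with an adjusted p of 0.171.

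In TFEB-wt Cre-neg cells, Ccl8 had 2231, 1908, 1498, 1815 and 1320 CPM in CCR2pos libraries, against 811, 562, 512, 605 and 304 CPM in CCR2neg libraries. The groups did not overlap, which held in this direction for 2.45% of genes. The log2 fold change was 1.65 ± 0.37 (SE), with an adjusted p of 0.0106 by edgeR's quasi-likelihood test, which all p-values below come from unless another tool is named. In that comparison 1 of the 4 genes was called, against 2.35% of all genes (1.53% higher). In CX3CR1-Cre cells, Ccl8 had 1006, 1435, 1528, 1334 and 1148 CPM in CCR2pos libraries, against 398, 400, 341, 323 and 213 CPM in CCR2neg libraries. Again no libraries overlapped (2.05% of genes), the log2 fold change was 1.95 ± 0.38 with an adjusted p of 0.00632, and 1 of the 4 genes was called against 0.797% of all genes (0.594% higher).

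In mac-TFEB cells, Ccl8 had 518, 881, 805 and 1582 CPM in CCR2pos libraries, against 79.5, 195, 184 and 514 CPM in CCR2neg libraries. The lowest CCR2pos library lay just above the highest CCR2neg library (such separation held for 2.69% of genes). The log2 fold change was 1.96 ± 0.42 with an adjusted p of 0.0157, and 1 of the 4 genes was called against 0.539% of all genes. This call was lost without CCR2neg mac-TFEB replicate 1 (adjusted p = 0.0640), 2 (0.0714) or 3 (0.0877), without CCR2pos mac-TFEB replicate 4 (0.120), and in a fit to these libraries alone (0.196). In TFEB-TG Cre-neg cells, Ccl8 had 739, 1366, 1382 and 1269 CPM in CCR2pos libraries, against 152, 502, 775 and 888 CPM in CCR2neg libraries. The groups overlapped, since the lowest CCR2pos value lay below the highest CCR2neg values. The log2 fold change was 1.04 ± 0.41 with an adjusted p of 0.185, and 0 of the 4 genes was called by edgeR, DESeq2 or limma-voom (1 had an unadjusted p under 0.05), against 3.26% of all genes by edgeR (2.47% higher). Without both CCR2neg TFEBTG1 libraries this fold change was 0.69 (adjusted p = 0.264). That fit kept the CCR2pos TFEBTG1 library, the lowest of its group at 739 CPM. Within the labels TFEBTG2, TFEBTG3 and TFEBTG4 the CCR2pos library was higher by 1.44, 0.83 and 0.52 log2 units.

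Libraries of the same label deviated together from their group means (correlations of 0.175 to 0.545 over the pairs of the mac-TFEB, CX3CR1-Cre and TFEB-TG Cre-neg fraction comparisons), so these were also fitted with the label as a block. Within labels every gene leaned the same way: Ccl8, Ccl7 and Ccl12 were higher in the CCR2pos library in 18 of 18 label pairs and Ccl2 in 17 of 18. These pairs come from 9 labels, each counted in Cre and in Cre-neg cells, so they are not 18 separate samples. They include the TFEB-wt Cre-neg pairs, 1 of which correlated at only 0.0958. The pairwise log2 differences were 0.52 to 2.70 for Ccl8, against 0.01 to 1.19 for Ccl12, 0.01 to 0.94 for Ccl7 and -0.00488 to 0.60 for Ccl2.
With the block, all 4 genes were called in mac-TFEB cells, with log2 fold changes of 0.39 ± 0.10 for Ccl2 (adjusted p = 0.0234), 0.52 ± 0.12 for Ccl7 (0.0107), 2.13 ± 0.24 for Ccl8 (8.82e-07) and 0.75 ± 0.13 for Ccl12 (0.000548), against 2.36% of all genes called higher. With the label as a random block at the correlation estimated from the data, which limma-voom allows, the calls of Ccl8 (adjusted p = 3.54e-05) and Ccl12 (0.00787) held there and those of Ccl2 (0.0898) and Ccl7 (0.194) were lost. In CX3CR1-Cre cells the blocked fit called Ccl7 (0.42 ± 0.11, adjusted p = 0.0195), Ccl8 (1.995 ± 0.21, 5.44e-07) and Ccl12 (0.40 ± 0.11, 0.0437), against 2.7% of all genes higher, and Ccl2 was at 0.18 ± 0.09 (0.317). The random block kept Ccl8 there (3.37e-05) and lost Ccl7 (0.202) and Ccl12 (0.149). In TFEB-TG Cre-neg cells the blocked fit called Ccl7 (0.39 ± 0.12, 0.0388), Ccl8 (1.27 ± 0.23, 0.000404) and Ccl12 (0.46 ± 0.13, 0.0214), against 6.26% of all genes higher. Here too the random block kept Ccl8 (0.00686) and lost Ccl7 (0.243) and Ccl12 (0.0940). TFEBTG1 had the largest label difference there for Ccl7 (0.92) and Ccl12 (0.94). Without both CCR2neg TFEBTG1 libraries, edgeR without the block gave 0.0243 for Ccl7 (adjusted p = 0.976) and 0.19 for Ccl12 (0.692). In mac-TFEB cells that fit gave 0.28 for Ccl7 (0.812). It kept the CCR2pos TFEBTG1 libraries, the lowest of their groups for Ccl7, so it is not a fit to the other labels alone. In TFEBTG2, TFEBTG3 and TFEBTG4 the Cre-neg label differences were 0.42, 0.22 and 0.013 for Ccl7 and 0.39, 0.48 and 0.0065 for Ccl12. Those of Ccl7 in mac-TFEB cells were 0.32, 0.79 and 0.21.

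Dendritic cell markers (8 of 8 measured, Flt3 and Cd209a among them) had higher sums in CCR2pos than in CCR2neg cells with Cre. They summed to 121 to 214 CPM in CCR2pos, against 59.9 to 84.9 CPM in CCR2neg mac-TFEB libraries. There Cd209a had 49.5 to 141 CPM, against 13.6 to 34.5 CPM, while Flt3 overlapped (3.41 to 7.70 and 2.47 to 7.16 CPM). In CX3CR1-Cre libraries Flt3 did not overlap (6.37 to 9.38 and 1.12 to 4.02 CPM). In CX3CR1-Cre cells the sums were 129 to 205 CPM in CCR2pos libraries, against 49.2 to 86.4 CPM in CCR2neg libraries. In Cre-neg cells the sums overlapped, with 57.3 to 154 CPM in CCR2pos TFEB-TG, 120 to 184 CPM in CCR2pos TFEB-wt, 47.4 to 114 CPM in CCR2neg TFEB-TG and 62.5 to 128 CPM in CCR2neg TFEB-wt libraries. Itgae and Clec9a of this list were at 0 in some library. Sums of resident macrophage markers (11 of 11) over all groups overlapped between fractions, at 5987 to 9563 CPM in CCR2pos and 5964 to 12337 CPM in CCR2neg libraries. Of the 11, 2 were called lower in CCR2pos TFEB-wt Cre-neg cells. Single markers could differ where sums did not: in mac-TFEB libraries Timd4 had 17.3 to 34.8 CPM in CCR2pos and 48.2 to 65.7 CPM in CCR2neg cells. Lyve1 and Folr2 overlapped there. The part of other cells in the Ccl8 difference was not tested.

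**Figure D3:**
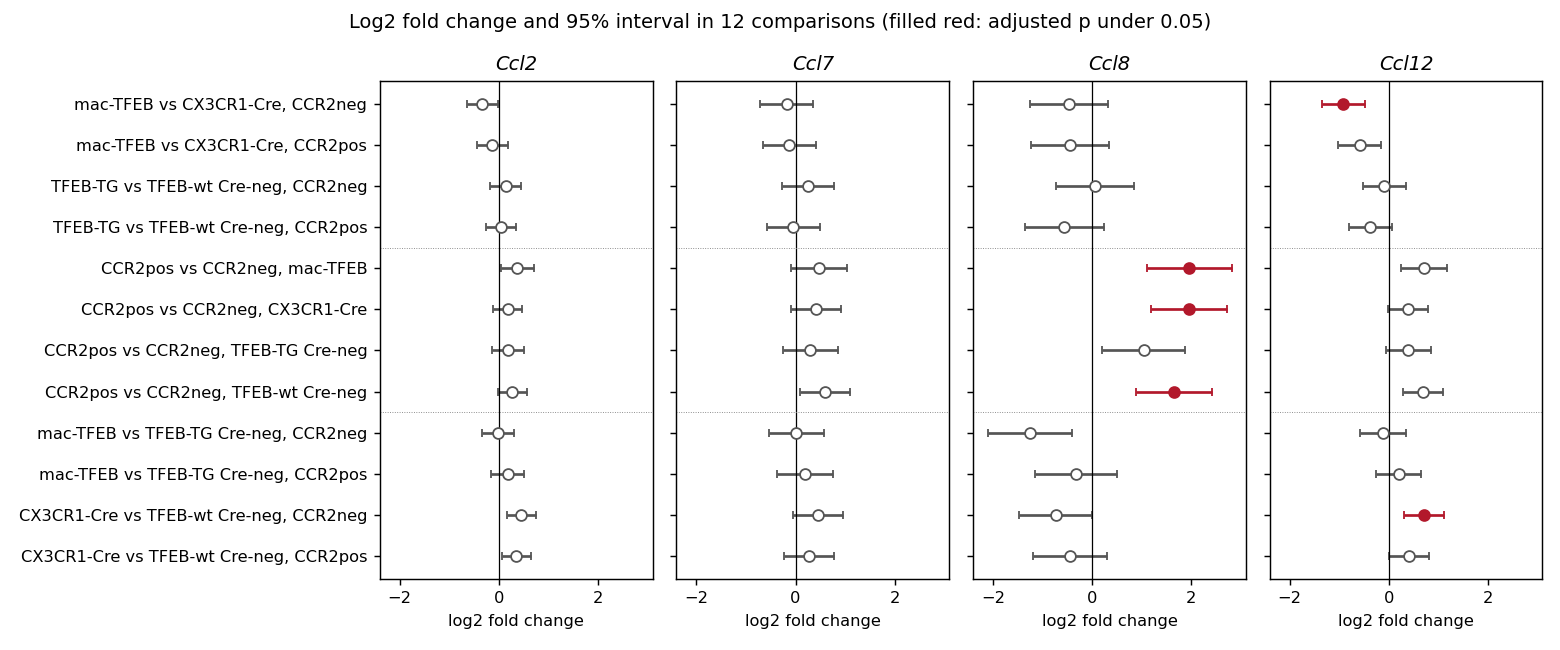
Log2 fold change (points) with 95% interval (lines) of the 4 genes in the 12 comparisons between groups, from 1 edgeR fit; filled red points have an adjusted p under 0.05. The called values are those of Ccl8 between fractions and of Ccl12 in CCR2neg mac-TFEB against CX3CR1-Cre and CX3CR1-Cre against Cre-neg cells.

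Cells with Cre were next set against Cre-neg cells of the same genotype and fraction. In the CCR2neg fraction of TFEB-wt mice the 4 genes leaned in opposite directions: the CCR2 ligands leaned higher in CX3CR1-Cre cells and Ccl8 leaned lower. Ccl12 had 1162, 1166, 1052, 757 and 921 CPM in CX3CR1-Cre libraries, against 708, 689, 725, 493 and 481 CPM in TFEB-wt Cre-neg libraries. The groups did not overlap, which held in this direction for 1.95% of genes. Its log2 fold change was 0.71 ± 0.20 with an adjusted p of 0.0486, and it was the only 1 of the 4 genes called, against 2.6% of all genes (0.969% higher and 1.63% lower). The call sat at the threshold: 9 of 10 fits that left out 1 library of these groups lost it, with adjusted p-values of 0.0402 to 0.156 over the 10.

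Ccl2 had 2878, 2639, 2655, 2645 and 2420 CPM in CX3CR1-Cre, against 2486, 1950, 1801, 1873 and 1594 CPM in TFEB-wt Cre-neg CCR2neg libraries. Only TFEBwt1 of the Cre-neg libraries reached into the CX3CR1-Cre range. The log2 fold change of Ccl2 was 0.45 ± 0.14 (adjusted p = 0.0990), 0.54 without that library (adjusted p = 0.0389) and 0.44 without both CCR2neg TFEBTG1 libraries (adjusted p = 0.0286). The TFEBTG1 libraries are outside the groups compared. Ccl7 was at 1484 to 2175 CPM in CX3CR1-Cre, against 1006 to 1876 CPM in Cre-neg libraries (0.45 ± 0.25, adjusted p = 0.459). Ccl8 had 398, 400, 341, 323 and 213 CPM in CX3CR1-Cre, against 811, 562, 512, 605 and 304 CPM in Cre-neg libraries, overlapping only through TFEBwt5. Its log2 fold change was -0.74 ± 0.37 (adjusted p = 0.388).
With the label as a block, where the lowest correlation of a pair was 0.140, all 4 genes were called: Ccl2 at 0.46 ± 0.09 (adjusted p = 0.00114), Ccl7 at 0.46 ± 0.11 (0.00555), Ccl12 at 0.71 ± 0.12 (0.000111) and Ccl8 at -0.72 ± 0.20 (0.0246). The blocked fit called 3.41% of all genes higher and 4.13% lower. With the random block Ccl2 (adjusted p = 0.00667) and Ccl12 (0.00175) were called, and the calls of Ccl7 (0.0967) and Ccl8 (0.117) were lost. Each of the CCR2 ligands was higher, and Ccl8 lower, in 5 of 5 labels.

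In the CCR2pos fraction of TFEB-wt mice the leanings had the same signs. Ccl7 was at 0.27 ± 0.25 (adjusted p = 0.996). Ccl2 had 2630 to 3378 CPM in CX3CR1-Cre, against 1836 to 2990 CPM in Cre-neg libraries (0.35 ± 0.14, adjusted p = 0.751). Ccl12 had 1060 to 1624 CPM in CX3CR1-Cre, against 682 to 1315 CPM in Cre-neg libraries (0.41 ± 0.20, 0.880). Ccl8 had 1006 to 1528 CPM in CX3CR1-Cre, against 1320 to 2231 CPM in Cre-neg libraries (-0.44 ± 0.36, 0.996). None of the 4 genes was called by edgeR, DESeq2 or limma-voom, 2 had an unadjusted p under 0.05, and 0.00782% of all genes were called. With the block, where pairs correlated at 0.243 or more, Ccl2 was called (0.37 ± 0.09, adjusted p = 0.0422, against 0.649% of all genes higher), and with the random block this call was lost (adjusted p = 0.199). The difference of the Cre comparison between fractions was not called for any of the 4 genes, with log2 values of -0.10 for Ccl2, -0.18 for Ccl7, 0.29 for Ccl8 and -0.30 for Ccl12, and 95% intervals of which the widest, for Ccl8, ran from -0.75 to 1.34. No gene of the table was called in it by edgeR, DESeq2 or limma-voom (0% called), and 524 had an unadjusted p under 0.05.

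In TFEB-TG mice, Ccl8 was again the gene that leaned lower with Cre. It had 79.5, 195, 184 and 514 CPM in CCR2neg mac-TFEB libraries, against 152, 502, 775 and 888 CPM in CCR2neg TFEB-TG Cre-neg libraries. The mac-TFEB library was lower than its Cre-neg partner in 4 of 4 labels, although the groups overlapped. The log2 fold change was -1.25 ± 0.41 with an adjusted p of 0.295, and none of the 4 genes was called by edgeR, DESeq2 or limma-voom (1 had an unadjusted p under 0.05), against 0.156% of all genes by edgeR (0.086% higher and 0.0703% lower). With the block, where pairs correlated at 0.303 or more, Ccl8 was called at -1.30 ± 0.23 (adjusted p = 0.00135, against 1.13% of all genes lower), and the random block also called it (adjusted p = 0.0290). It was also called, at -1.92 (adjusted p = 0.0381), without CCR2neg mac-TFEB replicate 4, the highest of its group. Ccl2 (-0.02 ± 0.16), Ccl7 (0.02 ± 0.28) and Ccl12 (-0.12 ± 0.22) gave no call, with 95% intervals of -0.34 to 0.31 for Ccl2, -0.54 to 0.58 for Ccl7 and -0.57 to 0.34 for Ccl12. In the CCR2pos fraction the log2 fold changes were 0.17 ± 0.16 for Ccl2, 0.19 ± 0.28 for Ccl7, -0.33 ± 0.41 for Ccl8 and 0.20 ± 0.22 for Ccl12; none was called with or without the block, none had an unadjusted p under 0.05, and 0.0156% of all genes were called.

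Over both genotypes, Ccl8 was lower in the Cre library of a label in 9 of 9 CCR2neg pairs (log2 differences of -2.07 to -0.49) and in 7 of 9 CCR2pos pairs. Ccl12 was higher in the Cre library in 5 of 5 TFEB-wt pairs of either fraction, but in 2 of 4 CCR2neg and 3 of 4 CCR2pos pairs of TFEB-TG labels. Monocyte markers (11 of 11 measured, Ly6c2, Chil3 and Plac8 among them, and Ccr2 too) had lower sums with Cre, though single markers were called in 1 of the 4 Cre comparisons. They summed to 321 to 667 CPM in CX3CR1-Cre, against 964 to 3172 CPM in TFEB-wt Cre-neg CCR2neg libraries, where 6 of the 11 were called lower. In TFEB-TG CCR2neg cells they summed to 503 to 1033 CPM in mac-TFEB, against 1362 to 5831 CPM in Cre-neg libraries, with none called. In CCR2pos cells the sums were 596 to 1686 CPM in mac-TFEB and 1700 to 2831 CPM in TFEB-TG Cre-neg libraries, and 818 to 1407 CPM in CX3CR1-Cre and 1166 to 3035 CPM in TFEB-wt Cre-neg libraries, with no marker called in either comparison. Ccr2 was called in none of the 4. Ly6c2 was at or near 0 in Cre cells of the CCR2neg fraction (0 to 0.618 CPM in mac-TFEB and 0 to 0.777 CPM in CX3CR1-Cre libraries, against 1.38 to 2.51 CPM in TFEB-TG Cre-neg and 0.239 to 3.92 CPM in TFEB-wt Cre-neg libraries). The part of these monocyte transcripts in the chemokine differences was not tested.

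**Figure D4:**
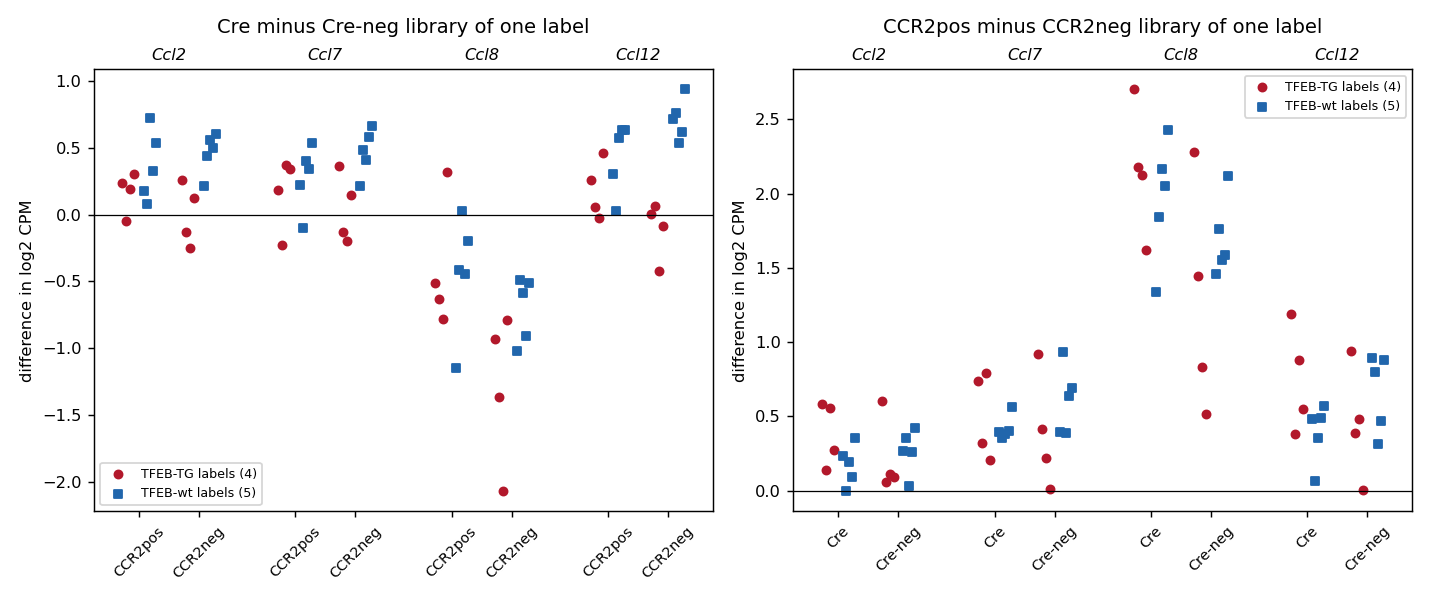
Differences in log2 CPM between libraries of the same label: Cre minus Cre-neg within each fraction (left) and CCR2pos minus CCR2neg within Cre or Cre-neg cells (right); circles are the 4 TFEB-TG labels, squares the 5 TFEB-wt labels. Ccl8 lies below 0 in all 9 CCR2neg pairs on the left and furthest above 0 on the right, and Ccl12 is above 0 in every TFEB-wt pair on the left.

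The comparison of mac-TFEB with CX3CR1-Cre cells asks which genes change with TFEB overexpression. Ccl12, a CCR2 ligand, was lower in CCR2neg mac-TFEB cells, and the other 3 genes gave no call in either fraction. Ccl12 had 357, 552, 465 and 774 CPM in CCR2neg mac-TFEB libraries, against 1162, 1166, 1052, 757 and 921 CPM in CCR2neg CX3CR1-Cre libraries. The groups overlapped by 1 library each: TFEBTG4 lay just above TFEBwt4. The log2 fold change was -0.91 ± 0.22 with an adjusted p of 0.0216, and 1 of the 4 genes was called against 1.38% of all genes (0.453% lower). The call was lost without mac-TFEB replicate 1 (-0.76, adjusted p = 0.0708) or 3 (-0.85, 0.132), without CX3CR1-Cre replicate 3 (-0.90, 0.0533) and in a fit to these libraries alone (0.0810), but not without both CCR2neg TFEBTG1 libraries (-0.76, 0.0408). Single markers of other cells were also called in this comparison. T and NK cell markers (8 of 9 measured, 1 called higher) summed to 77.6 to 129 CPM in mac-TFEB, against 27.1 to 58.0 CPM in CX3CR1-Cre libraries. Mast cell markers (2 of 6 measured, 1 called lower) summed to 1.24 to 2.42 CPM in mac-TFEB and 1.38 to 54.9 CPM in CX3CR1-Cre libraries, against 1.52 to 2.39 CPM in TFEB-wt Cre-neg libraries, and the same list had 1 called higher in CX3CR1-Cre against TFEB-wt Cre-neg cells, the other comparison that called Ccl12. Of dendritic cell and macrophage markers, 1 of 8 and 1 of 10 were lower. Their part in the Ccl12 difference was not tested. Over the settings that did not leave out a single library in turn, the adjusted p of Ccl12 was 0.00114 to 0.0810.

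Ccl2 had 1608, 2223, 1939 and 2641 CPM in CCR2neg mac-TFEB libraries, against 2878, 2639, 2655, 2645 and 2420 CPM in CX3CR1-Cre libraries, with 1 mac-TFEB library inside the CX3CR1-Cre range (-0.33 ± 0.15, adjusted p = 0.305). Ccl7 ranged from 857 to 2427 CPM in mac-TFEB libraries, against 1484 to 2175 CPM in CX3CR1-Cre libraries (-0.17 ± 0.26, 0.827). Ccl8 had 79.5 to 514 CPM in mac-TFEB libraries, against 213 to 400 CPM in CX3CR1-Cre libraries (-0.46 ± 0.39, 0.639), and its fold change was -0.17 without both CCR2neg TFEBTG1 libraries. The 95% intervals were -0.64 to -0.02 for Ccl2, -0.71 to 0.36 for Ccl7 and -1.25 to 0.33 for Ccl8.

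In the CCR2pos fraction, Ccl12 had 816, 718, 855 and 1135 CPM in mac-TFEB libraries, against 1624, 1217, 1342, 1060 and 1369 CPM in CX3CR1-Cre libraries. The highest mac-TFEB library reached just above the lowest CX3CR1-Cre library. The log2 fold change was -0.59 ± 0.21, with an unadjusted p of 0.0098 and an adjusted p of 0.996. Ccl2 (-0.13 ± 0.15), Ccl7 (-0.12 ± 0.27) and Ccl8 (-0.45 ± 0.39) were not called either. None of the 4 genes was called by edgeR, DESeq2 or limma-voom, 1 had an unadjusted p under 0.05, and 0.0391% of all genes were called by edgeR. The change of Ccl12 was not shown to differ between fractions (difference of 0.33 ± 0.30, 95% interval -0.28 to 0.94, adjusted p = 0.9998). In that difference edgeR, DESeq2 and limma-voom called 0 of all genes (505 had an unadjusted p under 0.05), and the values were 0.20 ± 0.22 for Ccl2, 0.05 ± 0.37 for Ccl7 and 0.02 ± 0.55 for Ccl8.

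Cre-neg cells with and without the cassette give the background of genotype and label. Ccl12 had 356, 528, 622 and 822 CPM in CCR2neg TFEB-TG Cre-neg libraries, against 708, 689, 725, 493 and 481 CPM in CCR2neg TFEB-wt Cre-neg libraries. These overlapped widely, with a log2 fold change of -0.09 ± 0.21. In the CCR2pos fraction Ccl12 had 682 to 870 CPM in TFEB-TG, against 682 to 1315 CPM in TFEB-wt Cre-neg libraries (-0.38 ± 0.21, adjusted p = 0.9998). None of the 4 genes was called in either fraction by edgeR, DESeq2 or limma-voom, and none had an unadjusted p under 0.05, against 0.406% of all genes called by edgeR in CCR2neg and 0.0313% in CCR2pos cells. For Ccl2, Ccl7 and Ccl8 the log2 fold changes were 0.13 ± 0.15, 0.25 ± 0.26 and 0.05 ± 0.39 in CCR2neg and 0.04 ± 0.15, -0.04 ± 0.26 and -0.56 ± 0.39 in CCR2pos cells. Between fractions these cassette values differed by -0.09 for Ccl2, -0.30 for Ccl7, -0.61 for Ccl8 and -0.29 for Ccl12, and edgeR, DESeq2 and limma-voom called 0 of all genes (487 had an unadjusted p under 0.05).

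The change of Ccl12 beyond that of the cassette, which is mac-TFEB against CX3CR1-Cre minus TFEB-TG Cre-neg against TFEB-wt Cre-neg, was -0.82 ± 0.30 in the CCR2neg fraction (unadjusted p = 0.0097, adjusted p = 0.999). With the label as a block it was -0.82 ± 0.17 with an adjusted p of 0.0281, and Ccl12 was the only 1 of the 4 genes called, against 0.0625% of all genes lower. With the label as a random block the call was lost (-0.82 ± 0.22, adjusted p = 0.211). Without the block, edgeR called 0 of the 4 genes and 0 of all genes (496 had an unadjusted p under 0.05), limma-voom called 0 and DESeq2 called 2, none of them a chemoattractant gene. The other values with the block were -0.47 ± 0.14 for Ccl2 (adjusted p = 0.232), -0.43 ± 0.16 for Ccl7 (0.531) and -0.58 ± 0.30 for Ccl8 (0.697). In the CCR2pos fraction the blocked value for Ccl12 was -0.25 ± 0.17 (adjusted p = 0.9999).

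The balance between the CCR8 ligand and the CCR2 ligands can be read within a library, free of scaling, as a ratio of counts. Ccl8 counts were 1.05 ± 0.333 times those of Ccl12 in CCR2pos mac-TFEB, 1.01 ± 0.269 times in CX3CR1-Cre, 1.55 ± 0.365 times in TFEB-TG Cre-neg and 1.82 ± 0.476 times in TFEB-wt Cre-neg cells (SD, n = 4, 5, 4 and 5). In CCR2neg cells the same ratio was 0.409 ± 0.185 in mac-TFEB, 0.334 ± 0.0696 in CX3CR1-Cre, 0.926 ± 0.353 in TFEB-TG Cre-neg and 0.906 ± 0.266 in TFEB-wt Cre-neg cells. The mean ratio was lower in both Cre groups of each fraction, but TFEB-TG libraries overlapped. In CCR2neg cells they had 0.223 to 0.664 in mac-TFEB and 0.427 to 1.25 in Cre-neg libraries. In CCR2pos cells they had 0.635 to 1.39 and 1.08 to 1.98. In the CCR2neg TFEB-wt cells the groups did not overlap, with 0.231 to 0.426 in CX3CR1-Cre and 0.633 to 1.23 in Cre-neg libraries. The ratio of Ccl12 to Ccl2 counts was lower with the cassette than without it in each pair of means. With Cre it was 0.251 ± 0.0302 in mac-TFEB, against 0.382 ± 0.0580 in CX3CR1-Cre CCR2neg cells, and 0.322 ± 0.0303 in mac-TFEB, against 0.441 ± 0.0397 in CX3CR1-Cre CCR2pos cells. In the Cre-neg groups it was 0.272 in TFEB-TG, against 0.321 in TFEB-wt CCR2neg cells, and 0.319 in TFEB-TG, against 0.426 in TFEB-wt CCR2pos cells. Ccl7 to Ccl2 stayed at 0.650 to 0.822 in all group means. These ratios describe the libraries and were not tested.

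**Figure D5:**
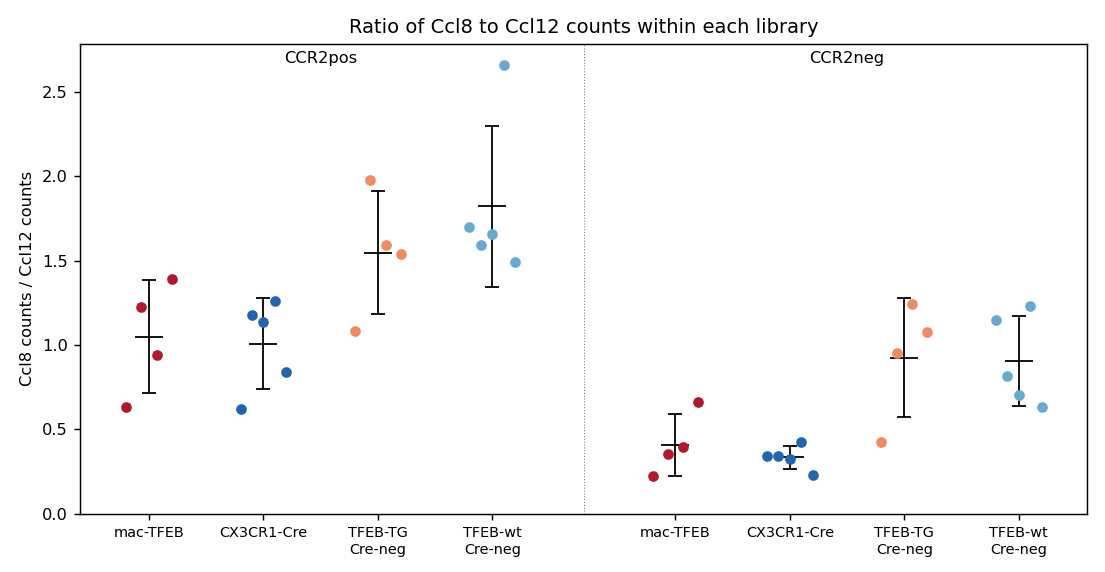
Ratio of Ccl8 to Ccl12 counts in each library, by fraction and group (points, libraries; bars, mean ± SD; n = 4 or 5). The means of mac-TFEB and CX3CR1-Cre lie below those of both Cre-neg groups in each fraction. Each group's mean lies lower in CCR2neg than in CCR2pos cells. Single libraries of the TFEB-TG groups overlap in both respects.

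Across the 36 libraries, which share labels and groups, the patterns of Ccl2 and Ccl7 were most like each other (Pearson r = 0.91, Spearman rho = 0.86, on log2 CPM). Next to Ccl2 came Ccl12 (r = 0.83), Casp4, a caspase of inflammasome signalling (0.80), Vrk1 (0.80) and Slc11a2, an iron transporter (0.79). Next to Ccl7 came Il10, an anti-inflammatory cytokine (0.88), Casp4 (0.86), Slfn2 (0.85) and Gm6377 (0.83). Ccl12 was most like Ccl2 (0.83), then Tmem176a (0.80), the adaptor gene Myd88 (0.78), Tmem176b (0.78) and Cd79b (0.76). Ccl8 kept other company: Ly6e, an interferon-inducible surface protein gene, came first (0.91, rho 0.93), then Nxpe5 (0.88), Tmem8 (0.87), Fh1 (0.87) and BC064078 (0.87), and Ccl7, Ccl12 and Ccl2 ranked 116, 180 and 416 among its likes.
Once group means were subtracted, the pattern changed. Among libraries of the same group, Ccl8 was by r most like Ccl7 (r = 0.85, rho = 0.70), Ccl2 (0.83, 0.73) and Il10 (0.82, 0.70). Npl had a lower r with Ccl8 (0.80) but a higher rho (0.78). Ccl7 was by r most like Il10 (0.93, rho 0.90), Ccl2 (0.92, 0.90) and Ccl8 (0.85, 0.70), while Casp4 and Hcar2 had a higher rho than Ccl8 (0.76 and 0.79). Ccl2 was by r most like Ccl7 (0.92, rho 0.90), then Ccl8 (0.83, 0.73), Npl (0.81, 0.77), Il10 (0.78, 0.74) and Ccl12 (0.78, 0.76). Ccl12 stayed closest to Ccl2 by r (0.78, rho 0.76), followed by Cd79b (0.74, 0.76) and Ccl8 (0.72, 0.63). The correlations are given without a p and include the TFEBTG1 libraries.

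Other CC chemokine genes were called in 2 of the 12 comparisons between groups. Of 16 listed, 10 were measured, and called changes were all toward lower levels. In CCR2neg CX3CR1-Cre against TFEB-wt Cre-neg cells, where Ccl12 was higher, 3 of the 10 fell, against 1.63% of all genes: Ccl9 (-0.94 ± 0.19, adjusted p = 0.00326) and Ccl6 (-0.90 ± 0.20, 0.00809), both CCR1 ligands, and Ccl24, a CCR3 ligand (-1.15 ± 0.28, 0.0174). Ccl24 was also lower in CCR2pos than in CCR2neg TFEB-wt Cre-neg cells (-1.21 ± 0.28, 0.0134), and in the other 10 group comparisons none of the 10 was called.

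Of 15 chemokine receptor genes, 9 were measured; Ccr8, Ackr1 and Ackr2 were not among them. Apart from Ccr2, on whose product the cells were sorted, the calls were those of Ackr3, an atypical receptor that takes up other chemokines, and Ccrl2. Ackr3 was lower in CCR2pos than in CCR2neg cells of both Cre-neg groups (-1.96 ± 0.45, adjusted p = 0.00856, in TFEB-TG and -1.96 ± 0.40, 0.00407, in TFEB-wt) and lower in CCR2neg CX3CR1-Cre than in TFEB-wt Cre-neg cells (-1.91 ± 0.40, 0.00547). Ccrl2 was higher in CCR2neg mac-TFEB than in CX3CR1-Cre cells (0.91 ± 0.22, 0.0256). Ccr2 stood at 0.19 ± 0.34 in that comparison (adjusted p = 0.861).

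Genes that are known to act upstream of these chemokines were called mainly between the fractions of Cre-neg cells. In TFEB-TG Cre-neg cells, 4 of 17 genes of NF-kB and AP-1 transcription were higher in CCR2pos cells (2.47% of all genes were), among them the NF-kB subunit gene Rel (1.00 ± 0.15, adjusted p = 4.16e-05) and the mRNA decay factor genes Zfp36 (0.67 ± 0.12) and Zc3h12a (0.92 ± 0.22). So were 3 of 10 interferon and STAT genes, with Irf7 at 1.06 ± 0.18 (0.000339) and Irf8 at 0.73 ± 0.17, and 9 of 18 upstream receptor and adaptor genes, with Ifnar2 at 0.82 ± 0.14 and Myd88 at 0.49 ± 0.09. The medians of these lists were 0.30, 0.37 and 0.47 log2 units, against -0.03 for all genes. Of 9 upstream cytokine genes, Il1b was called there (1.05 ± 0.29, 0.0331). In the same comparison 3 of 9 cardiomyocyte markers were lower (list median -1.59), at 35.95 to 53.3 CPM in CCR2pos and 30.5 to 513.9 CPM in CCR2neg libraries. Dissociation and stress genes (12 of 12 measured, 5 of which are also in the NF-kB and AP-1 list) had 2 higher, with sums of 12075 to 13680 CPM in CCR2pos and 9143 to 11354 CPM in CCR2neg libraries. The part of either in the calls was not tested. The genes of these lists were not read out from the fits without the TFEBTG1 libraries. In TFEB-wt Cre-neg cells, 2 of 17, 2 of 10 and 2 of 18 were higher (1.53% of all genes), with Rel at 0.64 ± 0.13 and Irf7 at 0.91 ± 0.16, and Il10 was the only 1 of 9 upstream cytokine genes called (1.20 ± 0.33, 0.0408). In CCR2neg CX3CR1-Cre against TFEB-wt Cre-neg cells, 2 of 17, 1 of 10 and 1 of 18 were higher (0.969% of all genes): Rel rose by 0.58 ± 0.13 (0.00929), Stat3 by 0.34 ± 0.09 (0.0347) and Myd88 by 0.34 ± 0.08 (0.0195), while the cytokine gene Il6 fell (-1.50 ± 0.42, 0.0464). In CCR2neg mac-TFEB against CX3CR1-Cre cells, where Ccl12 was lower, none of the 17, the 10 or the 9 and 1 of the 18 was called, the TNF receptor gene Tnfrsf1a (-0.44 ± 0.12, adjusted p = 0.0483), which was also lower in TFEB-TG than in TFEB-wt Cre-neg cells of that fraction (-0.50 ± 0.12, 0.0431). The median of the 17 NF-kB and AP-1 genes there was -0.30, against 0.01 for all genes.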

How the data were processed

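RNA of sorted cardiac macrophages was amplified with the SMARTer Ultra Low kit, without strand information, and sequenced as 50-base single reads, per the labels' protocols. Reads were aligned to GRCm38; the submitters' processing notes name TopHat2 2.0.10, Bowtie2 and HTSeq. The authors deposited 1 table of whole-number read counts per gene, named as filtered (no source used here gives the filter). Totals were 13797484 to 32645783 counts (median 19676040).

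From these deposited counts, CPM used the column totals multiplied by the TMM scaling factors, and CPM per kilobase used GENCODE mRNA lengths. Group means of all 36 libraries were fitted in edgeR 4.0.16 (R 4.3.3) with TMM scaling and the quasi-likelihood test, after a minimum count of 10 that kept all 12795 genes. P-values were adjusted by Benjamini-Hochberg over 12795 genes, and an adjusted p under 0.05 was called. SEs are the log2 fold change over the root of F. Correlations and within-label differences used log2 CPM with a prior count of 2. Libraries of the same label correlated at over 0.1 in 53 of 54 pairs after group means were removed (mean 0.347), so the label was used as a block where every pair of a comparison did; the pairing comes from the labels' numbers.

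Alternatives were DESeq2 1.42.0, limma-voom (limma 3.58.1), other scaling, other filters, blocks, an Xist term, a fit to each comparison's libraries and leaving out libraries; leaving out both CCR2neg TFEBTG1 libraries was chosen after seeing the data. Xist, an RNA of female cells, was at 10 CPM or more in all 4 libraries of 6 labels and below that in every library of the other 3. The fit was tested on simulated data. The genes and lists were chosen with earlier results of these data known. Genes named beside the 4 were the 5 most alike by correlation, Ccr2, Ccl11, Tfeb, and up to 4 of each list with the smallest p. No pair of libraries within a group agreed within counting error (64 pairs, chi-square of 20.0 to 119 times its degrees of freedom).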

Additional observations from a re-analysis of the deposited data

Results flagged for a closer look

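Within groups, the TFEBTG1 library of CCR2neg TFEB-TG Cre-neg cells had 1346 CPM of Ccl2, against 2304 to 2435 CPM in the other 3 libraries, a gap of 0.88 of the group's range (Dixon's critical value is 0.829 for 4 samples). This is the library with 513.9 CPM of cardiomyocyte markers; the part of those transcripts in its Ccl2 level was not tested. The TFEBwt1 library of CCR2neg TFEB-wt Cre-neg cells had 1876 CPM of Ccl7, against 1006 to 1245 CPM in the other 4, a gap of 0.726 of the range (critical value 0.71 for 5 samples). These were 2 of 32 groups of libraries and genes tested, and chance sets apart about 1 in 20. The effect of mac-TFEB against CX3CR1-Cre on Ccl12 in CCR2neg cells differed from that of the cassette in Cre-neg cells by -0.82 on the log2 scale (-0.8152) with the label as a block (adjusted p = 0.0281 by edgeR), by -0.82 with the label as a random block (adjusted p = 0.211 by limma-voom), and by -0.82 without it (adjusted p = 0.999).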

How the results depend on the processing

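Of the single-gene values under other settings that kept all or all but a named set of libraries, 755 stayed on their side of the threshold with the same direction, 29 became called, 2 lost their call and 14 changed sign. The changes of sign were all in uncalled values. With limma-voom quality weights, Ccl12 for the cassette in CCR2neg cells was 0.16, Ccl7 for the cassette in CCR2pos cells 0.0007 and Ccl7 for Cre status in CCR2neg TFEB-TG cells -0.11. Ccl8 for TFEB beyond the cassette in CCR2pos cells was -0.0374 with the label as a block, and Ccl8 for the cassette in CCR2neg cells was -0.19 with the replicate number as a block across genotypes and -0.15 with the label as a random block. Without the library rich in cardiomyocyte transcripts, Ccl12 for the cassette in CCR2neg cells was 0.094 and Ccl7 for Cre status in CCR2neg TFEB-TG cells -0.24. Without both CCR2neg TFEBTG1 libraries, Ccl7 was 0.0273 for mac-TFEB against CX3CR1-Cre in CCR2neg cells, -0.0608 for Cre status in CCR2neg TFEB-TG cells and -0.16 for TFEB between fractions, Ccl8 was -0.29 for TFEB between fractions, Ccl12 was 0.11 for the cassette in CCR2neg cells, and Ccl2 was -0.0144 between fractions of TFEB-TG Cre-neg cells. The fit without both CCR2neg TFEBTG1 libraries kept the CCR2pos libraries of that label. In TFEB-TG Cre-neg cells Ccl2 was higher in the CCR2pos library of TFEBTG2, TFEBTG3 and TFEBTG4 (0.06, 0.11 and 0.09 log2 units). The causes were not tested.

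The number of the 4 genes called moved under some settings. DESeq2 called 2 between fractions of mac-TFEB cells (181 of all genes) and 2 of TFEB-wt Cre-neg cells (428 of all genes). Limma-voom called 2 between fractions of TFEB-wt Cre-neg cells (391 of all genes). The label as a block gave 4 between fractions of mac-TFEB (3.76% of all genes called), 3 of CX3CR1-Cre (4.31%), 3 of TFEB-TG Cre-neg (9.6%) and 3 of TFEB-wt Cre-neg cells (6.31%). For Cre status the block gave 1 in CCR2neg TFEB-TG (2.35%), 4 in CCR2neg TFEB-wt (7.54%) and 1 in CCR2pos TFEB-wt cells (1.05%). For TFEB beyond the cassette in CCR2neg cells the block gave 1 (0.25%). As a random block it gave 2 between fractions of mac-TFEB, 1 of TFEB-TG Cre-neg and 3 of TFEB-wt Cre-neg cells, and for Cre status 1 in CCR2neg TFEB-TG and 2 in CCR2neg TFEB-wt cells, while it stayed at 1 between fractions of CX3CR1-Cre cells and at 0 for TFEB beyond the cassette in CCR2neg cells. A fit to each comparison's libraries gave 0 for mac-TFEB against CX3CR1-Cre in CCR2neg cells and 0 between fractions of mac-TFEB cells. Without the cardiomyocyte-rich library, and also without both CCR2neg TFEBTG1 libraries, 2 were called between fractions of TFEB-wt Cre-neg cells and 2 for Cre status in CCR2neg TFEB-wt cells. The libraries left out are outside the groups of these comparisons. The share of all genes called is not given for the random block, the fits to each comparison's libraries or the fits that left libraries out. In the TFEB-wt Cre-neg fractions 1 label pair correlated at only 0.0958, so there the samples share only a number; the block gave 0.61 for Ccl7 (adjusted p = 0.000391), 1.68 for Ccl8 (2.27e-06) and 0.67 for Ccl12 (0.000254). Libraries of the same number but different genotype correlated at -0.116 on average.

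Leaving out 1 library at a time, the called genes numbered 0 to 1 for mac-TFEB against CX3CR1-Cre in CCR2neg cells, 0 to 1 between fractions of mac-TFEB, 1 to 2 of TFEB-wt Cre-neg cells, and 0 to 1 for Cre status in CCR2neg cells of each genotype. Values that crossed 0 were, for Cre status in CCR2neg TFEB-TG cells, Ccl2 (-0.19 to 0.0787), Ccl7 (-0.29 to 0.25) and Ccl12 (-0.35 to 0.10). For the cassette they were Ccl8 (-0.23 to 0.38) and Ccl12 (-0.30 to 0.094) in CCR2neg, Ccl2 (-0.0308 to 0.15) and Ccl7 (-0.13 to 0.11) in CCR2pos cells, and Ccl2 (-0.27 to 0.0153) between fractions. For mac-TFEB against CX3CR1-Cre they were Ccl7 in CCR2neg (-0.48 to 0.0222) and CCR2pos cells (-0.28 to 0.0275), and between fractions Ccl7 (-0.15 to 0.36) and Ccl8 (-0.35 to 0.69). Beyond the cassette in CCR2pos cells they were Ccl7 (-0.24 to 0.0704) and Ccl8 (-0.25 to 0.32), and for Cre status between TFEB-wt fractions Ccl2 (-0.19 to 0.0086).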
